A study of Homo sapiens with 48 samples.

Results

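MCF10A-1 breast epithelial cells that carry SATB1 and cells that carry an empty vector were compared for how their nascent transcription changed in the first 3 hours of benzo[a]pyrene. For every one of 14745 genes in the GRO-seq table, the log2 fold change in vector cells was subtracted from the log2 fold change in SATB1 cells, so that a positive difference means a response that lies higher in SATB1 cells. The series holds 30436 gene rows over GRO-seq and RNA-seq, and 16 of its 48 libraries stand behind this difference. They form 4 groups of 4 GRO-seq libraries each: vector cells untreated, vector cells with 4 µM benzo[a]pyrene for 3 hours, SATB1 cells untreated, and SATB1 cells with the same dose and time. Both cell types are stable derivatives of one human line kept in medium with fetal bovine serum in place of horse serum; whether each is a clone or a pool is not given in the sources used here, nor is any separate culture for the replicates, so the p-values measure the spread between libraries, which may be technical.

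Benzo[a]pyrene is a combustion product that binds the aryl hydrocarbon receptor (AHR), a cytosolic transcription factor. Bound AHR enters the nucleus, pairs with ARNT and switches on genes such as CYP1A1, whose enzymes oxidise benzo[a]pyrene and in doing so form DNA-reactive products. SATB1 is a DNA-binding protein that folds chromatin into loops at AT-rich sites and recruits chromatin modifiers; in breast cancer it has been linked to invasive growth. GRO-seq labels RNA made by engaged polymerases in isolated nuclei, so it reads transcription itself, whereas RNA-seq reads the mRNA that has accumulated.

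All log2 fold changes given here were computed from ratios in the authors' deposited table, which numbers 5 contrasts without naming their groups. Contrast 1 held SATB1 itself, at a log2 fold change of 6.81 ± 0.14 in RNA-seq. SATB1 was not analysed in GRO-seq here. Contrasts 2 and 3 were placed in vector cells and contrasts 4 and 5 in SATB1 cells by their errors: for each of 12 genes much higher in SATB1 cells in GRO-seq, the error of contrast 2 exceeded that of contrast 4, and for each of 23 genes much lower in SATB1 cells it was smaller. That contrasts 2 and 4 are the 3 hour exposures rests on the order of the numbers; in both, CYP1A1 was above its value in contrasts 3 and 5 (7.35 and 5.58, against 2.00 and 1.53). The value after ± is a standard error derived from each fold change and its p-value. The depth of the libraries and the level of each gene are not in the table, so the cell type could be checked only by presence: 13 of 13 breast epithelial markers had a row, as did 10 of 11 fibroblast, 7 of 14 immune and 6 of 9 endothelial markers.

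The sequences shown here are the promoters of CYP1A1, which encodes the AHR-induced cytochrome P450, and of the immediate early genes EGR1 and JUNB, which the results turn on. They run from 250 bases before to 50 after the start site in RefSeq's GRCh38.p14, read 5′ to 3′ on the strand of the gene. Capitals mark GCGTG, the core of the AHR site, in CYP1A1 (chr15:74725479-74725778, minus strand) and CArG boxes, the sites of serum response factor, in EGR1 (chr5:138465229-138465528, plus strand) and JUNB (chr19:12791236-12791535, plus strand), each searched on both strands.
CYP1A1: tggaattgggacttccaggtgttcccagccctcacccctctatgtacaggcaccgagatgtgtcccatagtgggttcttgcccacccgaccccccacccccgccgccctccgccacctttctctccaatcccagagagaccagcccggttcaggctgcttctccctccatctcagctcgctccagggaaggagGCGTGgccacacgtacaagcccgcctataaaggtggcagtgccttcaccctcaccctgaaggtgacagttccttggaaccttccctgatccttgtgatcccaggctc
EGR1: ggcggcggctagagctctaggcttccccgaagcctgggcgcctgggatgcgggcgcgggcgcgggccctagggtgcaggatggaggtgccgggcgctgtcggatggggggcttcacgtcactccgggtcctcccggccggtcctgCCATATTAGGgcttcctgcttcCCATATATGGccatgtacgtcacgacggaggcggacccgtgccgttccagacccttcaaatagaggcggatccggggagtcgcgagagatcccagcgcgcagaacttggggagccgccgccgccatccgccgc
JUNB: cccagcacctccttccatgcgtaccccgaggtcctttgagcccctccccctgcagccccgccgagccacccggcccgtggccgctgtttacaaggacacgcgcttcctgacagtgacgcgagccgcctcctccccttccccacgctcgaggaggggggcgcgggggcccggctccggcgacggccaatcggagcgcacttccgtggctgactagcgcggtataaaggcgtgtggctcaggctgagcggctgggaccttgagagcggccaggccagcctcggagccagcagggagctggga
The CYP1A1 promoter held 1 GCGTG, beginning at position -57 from the start. Of 27305 genes with a listed start, 40.6% held it at some start, and 11 of 15 AHR-induced genes did. EGR1 held 2 CArG boxes, which begin at positions -105 and -83, and JUNB held 0 in this window; 1.60% of all genes held one. GCGTG was marked in CYP1A1 alone and CArG boxes in the other two, and no marked stretches overlap. GCGTG also occurs, unmarked, in the JUNB window, so it does not set CYP1A1 apart from JUNB. Among called genes with a listed start, it was found in 11 of 21 with a lower response in SATB1 cells. Of those with a higher response, 12 of 26 held it. These are matches of letters and show no binding.

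More genes were called for a response to benzo[a]pyrene in vector cells than in SATB1 cells, and most of them had the same sign in both; the difference in counts was not tested. In vector cells 1125 genes (7.63% of those tested) were called higher and 1155 (7.83%) lower at 3 hours, at a Benjamini-Hochberg adjusted p under 0.05. In SATB1 cells 233 genes (1.58%) were called higher and 225 (1.53%) lower. The mean squared error was 0.207 in vector cells and 0.192 in SATB1 cells. After it was taken off, the SD of the log2 fold change over all genes was 0.61 in vector cells and 0.46 in SATB1 cells. Of the 2280 genes called in vector cells, 83.0% had the same sign in SATB1 cells, and 11.1% were also called there in that direction. Their medians were 0.99 for genes called higher in vector cells, against 0.35 for the same genes in SATB1 cells, and -1.01 against -0.31 for those called lower; since these genes were chosen on their vector values, the first number of each pair leans large. Seen from SATB1 cells, 55.0% of the 458 called genes were also called in vector cells in that direction. Over all genes the Pearson correlation of the 2 responses was 0.35, a description across genes that are not independent replicates, between contrasts that share no library group. With the mean squared error taken off both variances, the correlation was 0.61, again a description without a test.

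The difference of the responses was called in 60 genes, 0.407% of those tested (p under 0.05, Benjamini-Hochberg adjusted over all rows). In 33 genes (0.224%) the response lay higher in SATB1 cells and in 27 (0.183%) it lay lower. At an unadjusted p under 0.05, 1114 genes (7.56%) lay higher and 877 (5.95%) lower, in all 1991 where a uniform spread of p-values would give 737. A difference had to reach 1.95 on the log2 scale to be called at the median error of 0.45, and 1.35 at the lower quartile of the errors; the smallest called difference was 0.94. Observed differences smaller than these could not be called at those errors, so a gene that was not called may still differ. Among the 33 genes higher in SATB1 cells, 16 were called lower in vector cells only, 13 were called higher in SATB1 cells only, 3 were called in opposite directions, and 1, the RNA-binding translational repressor gene SAMD4A, was called lower in both. Among the 27 genes lower in SATB1 cells, 22 were called higher in vector cells only, 2 were called in opposite directions, 2 were called lower in SATB1 cells only, and 1, the nebulin gene NEB, was called higher in both.

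**Figure D1:**
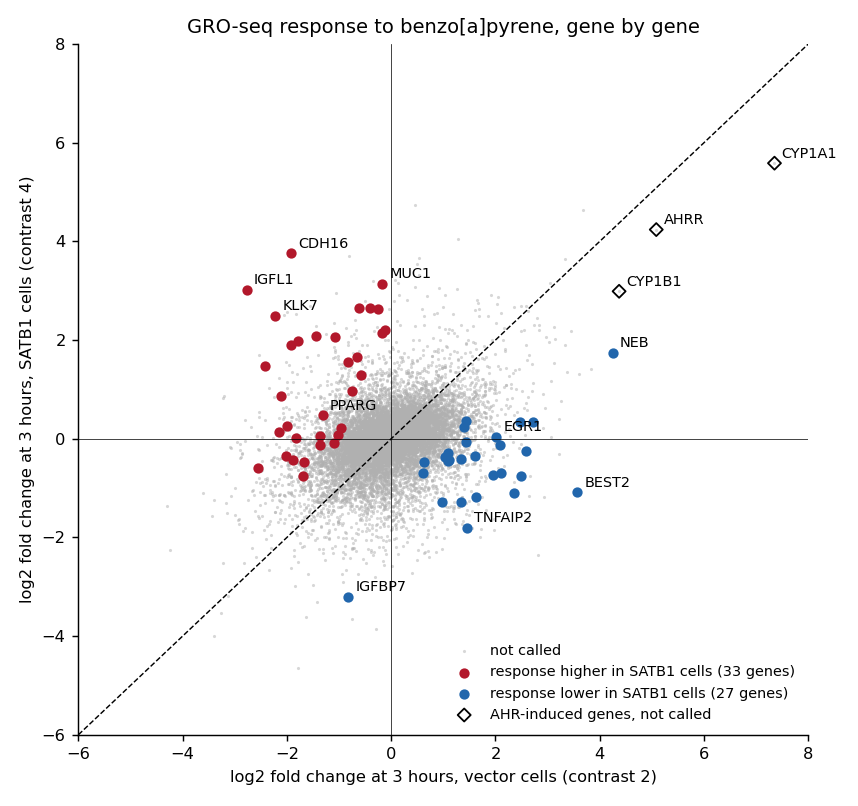
Each point is one of 14745 genes, with its GRO-seq log2 fold change at 3 hours in vector cells (x axis) and in SATB1 cells (y axis); the dashed line marks equal responses. The 33 genes in red and 27 in blue are those whose responses differed at an adjusted p under 0.05, and CYP1A1, AHRR and CYP1B1 (diamonds) lie below the line without being called.

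Part of the genes that AHR switches on were called higher in each cell line, among them CYP1A1, CYP1B1, AHRR, TIPARP and ALDH3A1 in both, and the difference between the lines was called for none of these 5. Of 15 AHR-induced genes, 9 were called higher in vector cells and 6 in SATB1 cells, where 7.63% and 1.58% of all genes were. The 15 genes had median log2 fold changes of 1.16 and 0.35. Their median difference was -0.44, against 0.03 over all genes, and 13 of 15 were below 0. At an unadjusted p under 0.05, 3 lay lower in SATB1 cells, as 5.95% of all genes did, and 0 higher. A single member, NFE2L2, was called lower at an adjusted p under 0.05, as 0.183% of all genes were.

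CYP1A1 (chromosome 15, 74719542 to 74725528), whose promoter is printed above, was at 7.35 ± 0.76 in vector cells and 5.58 ± 0.72 in SATB1 cells. The difference was -1.77 ± 1.05, with a 95% interval from -3.92 to 0.39 (Benjamini-Hochberg adjusted p = 0.49). CYP1B1 (chromosome 2, 38067509 to 38076151), which oxidises benzo[a]pyrene in tissues outside the liver, was at 4.37 ± 0.48 and 2.99 ± 0.47. Its difference of -1.38 ± 0.67 was not called either (adjusted p = 0.37). Both genes were called higher in both cell lines, and the 95% interval of each difference reached 0. AHRR, the repressor that competes with AHR for ARNT, was at 5.08 ± 0.47 and 4.24 ± 0.44, a difference of -0.85 with an interval from -2.16 to 0.47. TIPARP, an ADP-ribosyltransferase that damps AHR, was at 1.87 ± 0.30 and 1.46 ± 0.31, a difference of -0.41 with an interval from -1.30 to 0.47. ALDH3A1, an aldehyde dehydrogenase, was at 2.65 ± 0.34 and 1.71 ± 0.34, a difference of -0.95 with an interval from -1.94 to 0.05. The quinone reductase gene NQO1 was called in neither cell line (-0.09 ± 0.39 and -0.53 ± 0.38).

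RNA-seq, made from other libraries, measured these differences with smaller errors. There the difference was called lower in SATB1 cells for CYP1A1 (-2.10 ± 0.29, Benjamini-Hochberg adjusted p = 5.4e-05), CYP1B1 (-1.06 ± 0.08), AHRR (-1.35 ± 0.25), TIPARP (-0.50 ± 0.05) and ALDH3A1 (-0.55 ± 0.08). For each of these 5 genes the RNA-seq value lay within the GRO-seq interval, and the assays' values were not tested against each other. NQO1 had an RNA-seq difference of 0.01. Of 17 AHR-induced genes in RNA-seq, 7 were called lower and 0 higher, where 0.373% of all 15535 genes were called lower and 0.0451% higher. Within AHR's own pathway, 12 components and cofactors had a median GRO-seq difference of -0.02, and none was called.

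NFE2L2 (chromosome 2, 177230303 to 177264727) encodes NRF2, the master switch of antioxidant genes, and is itself an AHR target. It was at 1.44 ± 0.17 in vector cells and 0.35 ± 0.17 in SATB1 cells, a difference of -1.09 ± 0.24 (Benjamini-Hochberg adjusted p = 0.042). Among 21 NRF2-dependent genes the median difference was -0.47, with 2 called lower (0.183% of all genes) and 6 lower at an unadjusted p under 0.05 (5.95% of all genes). The called pair, AKR1C1 and AKR1C2, encodes aldo-keto reductases that reduce steroids and oxidise the dihydrodiols of polycyclic hydrocarbons. AKR1C1 was at 1.60 ± 0.23 in vector cells and -0.35 ± 0.24 in SATB1 cells (difference -1.95 ± 0.34). AKR1C2 was at 2.09 ± 0.29 and -0.13 ± 0.28 (difference -2.22 ± 0.41). The response of both was present in vector cells and not detectable in SATB1 cells. Their neighbours of the same family, AKR1C3 (difference -1.55 ± 0.47) and AKR1C4 (-3.04 ± 1.09), were not called. Reads can be shared within this family, so the 4 values are not independent. The heavy chain gene of the iron store ferritin, FTH1, had a difference of -1.81 ± 0.63 and was not called. Of the 21 NRF2-dependent genes, 4 lay above 0, up to 1.57. HMOX1 was among these, with linear fold changes of 0.231 in vector cells and 0.685 in SATB1 cells. In RNA-seq the differences of AKR1C1 and AKR1C2 were 0.11 ± 0.10 and 0.10 ± 0.10, and those intervals do not reach the GRO-seq values.

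Immediate early genes, the transcription factor genes that cells switch on within minutes of a growth factor or stress signal, were called higher mostly in vector cells. Of 24 such genes, 9 were called higher and 2 lower in vector cells, against 1 higher in SATB1 cells. The median log2 fold change was 0.87 in vector cells and -0.05 in SATB1 cells. The median difference was -0.57, with 2 genes called lower (0.183% of all genes were) and 9 lower at an unadjusted p under 0.05 (5.95% of all genes), where 1 lay higher. Over all genes, 7.63% were called higher in vector cells and 1.58% in SATB1 cells. EGR1 (chromosome 5, 138465479 to 138469303), the zinc finger factor of the CArG promoter above, was at 2.01 ± 0.27 in vector cells and 0.04 ± 0.26 in SATB1 cells. Its difference of -1.97 ± 0.38 was called (Benjamini-Hochberg adjusted p = 0.019). JUNB (chromosome 19, 12791486 to 12793315), an AP-1 subunit, was at 1.12 ± 0.23 and -0.43 ± 0.22, a called difference of -1.55 ± 0.32 (adjusted p = 0.023). Short of the threshold were JUND (-1.73 ± 0.41, adjusted p = 0.056) and EGR3 (-5.17 ± 1.24, adjusted p = 0.060), followed by FOSB (-2.49 ± 0.87) and JUN (-1.30 ± 0.43). FOSL2 behaved otherwise: it was called higher in both cell lines, at 1.28 ± 0.25 and 1.07 ± 0.25, and its difference of -0.21 had an interval from -0.94 to 0.52. MYC, the growth regulator, lay on the other side of 0 (1.00 ± 0.43) and was not called.

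The untreated groups enter these differences, and the levels of all 4 groups show where. Relative to untreated vector cells, EGR1 stood at 1.42 in untreated SATB1 cells, 2.01 in vector cells at 3 hours and 1.46 in SATB1 cells at 3 hours. JUNB stood at 1.16, 1.12 and 0.73 in the same order. In both genes untreated vector cells were the low group, with the other 3 groups above it. For TNFAIP2, discussed next, it was SATB1 cells at 3 hours that joined untreated vector cells: the levels were 1.43, 1.46 and -0.37. At 3 hours the 2 cell lines differed by -0.55 for EGR1 and -1.83 for TNFAIP2, values for which no error was computed. Across the called genes, every gene with a higher response in SATB1 cells stood lower there than in vector cells before treatment. Every called gene with a lower response stood higher there before treatment, except DGKI (ratio 0.91). The comparison of untreated cells shares both untreated groups with the difference of responses, so the values stand side by side and are no independent evidence for each other. The part of the untreated groups in the calls was not tested.

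**Figure D2:**
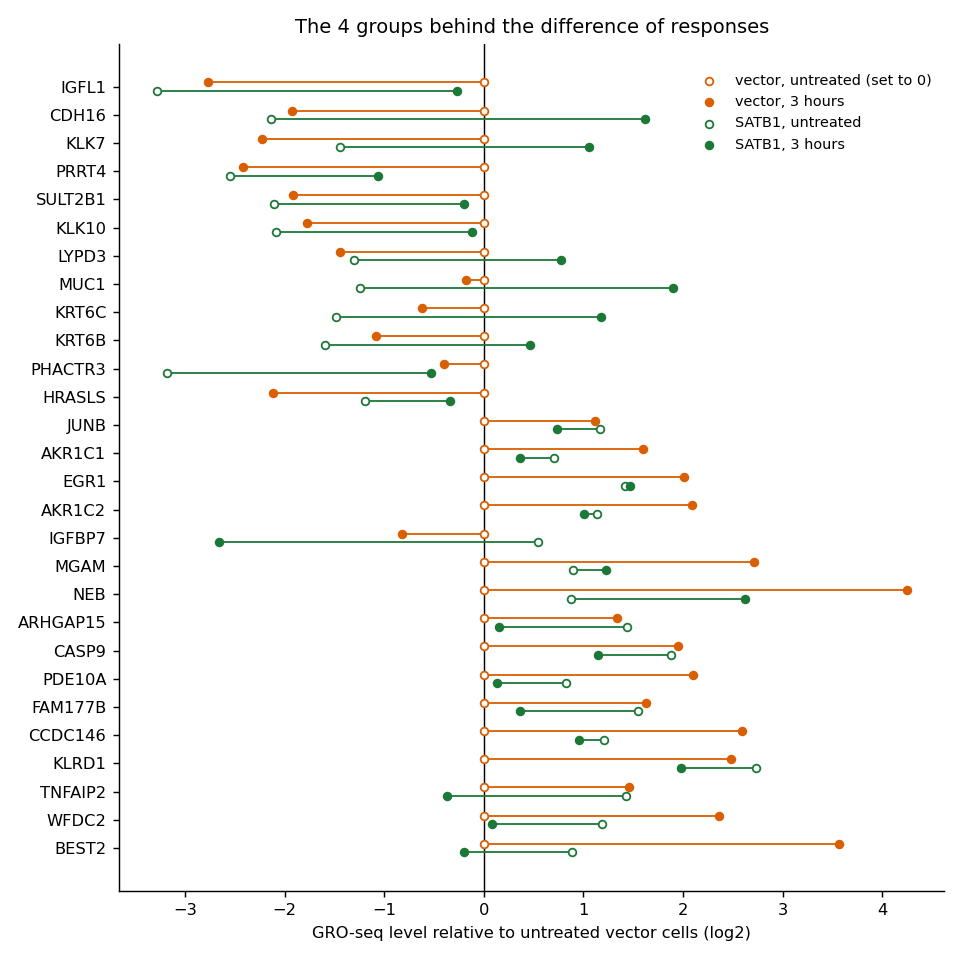
GRO-seq levels (log2, x axis) of 28 called genes in 4 groups, relative to untreated vector cells at 0; orange joins the vector groups and green the SATB1 groups, untreated as open and 3 hours as filled circles. In the lower 16 genes the filled green circle lies left of the filled orange one, and among the upper 12 genes it lies right of it in all but PHACTR3.

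Other genes with a lower response in SATB1 cells included TNFAIP2, CASP9 and BEST2, at differences of -3.26, -2.68 and -4.66. TNFAIP2 (chromosome 14, 103121469 to 103137439), a TNF-induced gene of membrane protrusions, was called higher in vector cells (1.46 ± 0.32) and lower in SATB1 cells (-1.80 ± 0.34). Its difference was -3.26 ± 0.47 (Benjamini-Hochberg adjusted p = 0.0014). PTP4A1, a phosphatase of proliferating cells, also switched direction, from 0.61 ± 0.18 to -0.70 ± 0.18 (difference -1.31 ± 0.25). CASP9, the initiator caspase of the mitochondrial death pathway, was called higher in vector cells alone, at 1.95 ± 0.42 against -0.73 ± 0.38. BEST2, a chloride channel gene, had the most negative of the called differences, -4.66 ± 0.86, from 3.57 ± 0.56 in vector cells and -1.09 ± 0.66 in SATB1 cells. WFDC2, a secreted protease inhibitor of epithelia, was at 2.36 ± 0.51 and -1.11 ± 0.55 (difference -3.47 ± 0.75). NEB, a filament ruler of muscle, was called higher in both, at 4.25 ± 0.32 and 1.75 ± 0.33, so that its difference of -2.50 ± 0.46 is one of size and not of direction.

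CCDC146 and most of the remaining genes were called in vector cells alone. CCDC146, a coiled-coil gene, was at 2.59 ± 0.29 and -0.25 ± 0.29 (difference -2.84 ± 0.41, Benjamini-Hochberg adjusted p = 0.0014). The natural killer receptor gene KLRD1 (-3.24 ± 0.74), FAM177B (-2.82 ± 0.59), the cyclic nucleotide phosphodiesterase gene PDE10A (-2.80 ± 0.56), the RAC GTPase-activating gene ARHGAP15 (-2.61 ± 0.52) and the starch-digesting maltase gene MGAM (-2.38 ± 0.46) were each called higher in vector cells and not in SATB1 cells. IGFBP7 (chromosome 4, 57030773 to 57110385), a secreted binder of insulin-like growth factors, was the reverse: it was called lower in SATB1 cells (-3.20 ± 0.38) and not in vector cells (-0.82 ± 0.32), a difference of -2.38 ± 0.50. The T cell receptor zeta chain gene CD247 was also called lower in SATB1 cells alone (-1.28 ± 0.32). In vector cells it lay above 0 (0.98 ± 0.35), whereas IGFBP7 lay below 0 in both. KLRD1 and CD247 belong to lymphocytes. Among 7 measured immune markers the median difference was -0.34, with 4 below 0 and 3 above, and none was called. CD68 was at -2.61 and CD14 at -1.03, while PTPRC, the pan-leukocyte marker, was at 0.72 ± 0.88. Any part of immune cells in these values was not tested.

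Genes of basal and squamous epithelial layers lay mostly on the other side, with more calls in SATB1 cells. Of 25 basal and squamous keratinocyte genes, 10 were called higher and 1 lower in SATB1 cells, against 3 higher and 4 lower in vector cells. The median log2 fold change was 1.45 in SATB1 cells and 0.20 in vector cells. The median of the differences of single genes was 0.58, smaller than the gap between those medians, and 18 of 25 lay above 0. One member was called higher for its difference, as 0.224% of all genes were, and 9 lay higher at an unadjusted p under 0.05, as 7.56% of all genes did, where 1 lay lower. Over all genes, 1.58% were called higher in SATB1 cells and 7.63% in vector cells. KRT6B (chromosome 12, 52446651 to 52452146), a keratin of activated keratinocytes, was at 2.06 ± 0.45 in SATB1 cells and -1.08 ± 0.43 in vector cells, a difference of 3.14 ± 0.63 (Benjamini-Hochberg adjusted p = 0.022). The neighbouring copy KRT6C, which was not on the list, was at 2.66 ± 0.40 and -0.62 ± 0.38 (difference 3.28 ± 0.55, adjusted p = 0.0069), and KRT6A had a difference of 2.17 ± 0.63 that was not called. These 3 keratins are nearly identical in sequence, and how reads were split among them is uncertain. The basal keratin gene KRT5 was called higher in SATB1 cells (1.75 ± 0.30) and vector cells (0.89 ± 0.29), with an uncalled difference of 0.86. The cornified envelope genes TGM1 (2.52 ± 0.69), IVL (4.22 ± 1.17) and SPRR1A (3.14 ± 1.04) had differences above 0 that were not called. On the other side, 7 of the 25 listed genes lay below 0, down to -1.84. The keratin gene KRT15 was among them, with linear fold changes of 3.06 in vector cells and 0.853 in SATB1 cells.

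The genes and families of this paragraph were chosen after their values were seen, and no theme was tested. KLK7 and KLK10, kallikrein proteases of which KLK7 sheds corneocytes, had differences of 4.72 ± 1.04 and 3.75 ± 0.84. Of 7 kallikrein-related genes measured, 2 were called higher, as 0.224% of all genes were, and 6 lay above 0, with a median of 2.75. KLK11 was at 2.75 ± 0.74 and KLK5 at 2.71 ± 0.91, neither of them called. SULT2B1 (chromosome 19, 48552172 to 48599427), the sulfotransferase that makes cholesterol sulfate in skin, was called lower in vector cells (-1.91 ± 0.49) and higher in SATB1 cells (1.90 ± 0.53), a difference of 3.81 ± 0.72. LYPD3, a glycolipid-anchored adhesion protein of squamous epithelia, was at -1.44 ± 0.55 and 2.08 ± 0.54 (difference 3.52 ± 0.76). Small proline-rich genes numbered 8, with a median difference of 2.51 and none called. In RNA-seq the differences of KRT6B (-0.03 ± 0.09), LYPD3 (0.09 ± 0.14) and KLK7 (-0.26 ± 0.84) were not called.

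**Figure D3:**
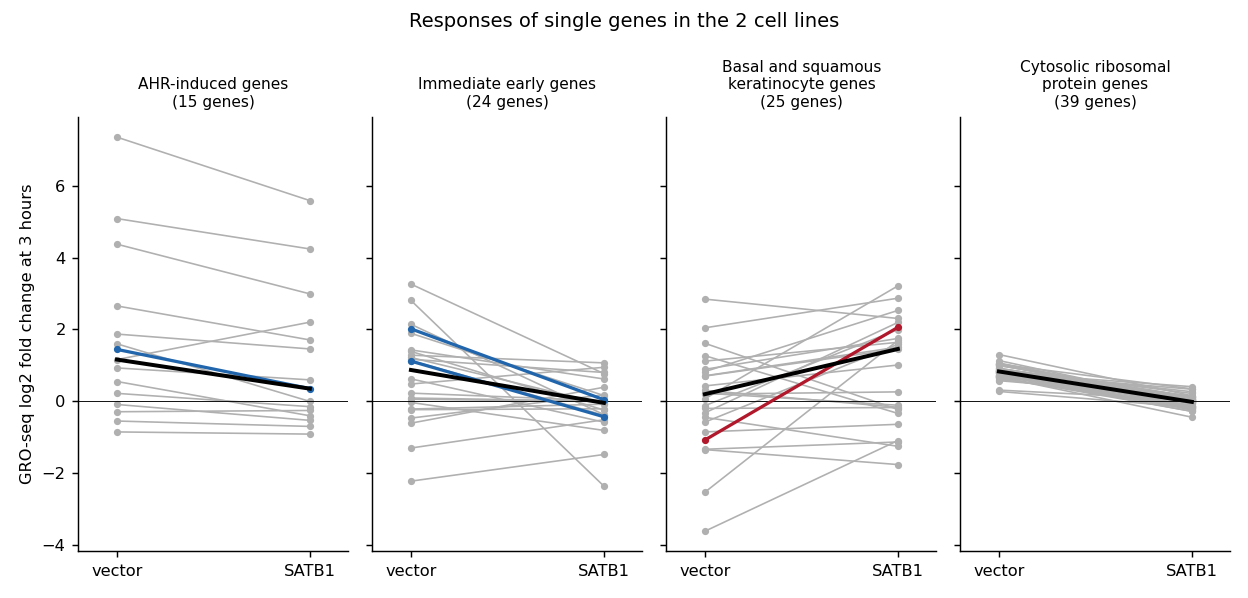
GRO-seq log2 fold changes at 3 hours (y axis) of single genes in vector and SATB1 cells, joined by lines, for 4 gene lists; black lines join the list medians, blue and red lines are genes called lower or higher in SATB1 cells. Medians go from 1.16 to 0.35 (AHR-induced), 0.87 to -0.05 (immediate early), 0.20 to 1.45 (basal and squamous) and 0.83 to -0.02 (ribosomal protein genes).

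IGFL1 and CDH16 had the most positive of the called differences. IGFL1 (chromosome 19, 46229742 to 46231243), a small secreted protein of skin, was called lower in vector cells (-2.77 ± 0.61) and higher in SATB1 cells (3.02 ± 0.66), a difference of 5.79 ± 0.90 (Benjamini-Hochberg adjusted p = 0.0039). CDH16 (chromosome 16, 66908122 to 66918885), a cadherin of kidney epithelium, was likewise at -1.92 ± 0.60 and 3.75 ± 0.55, a difference of 5.68 ± 0.81 (adjusted p = 0.0014). Relative to untreated vector cells, CDH16 stood at -2.14 in untreated SATB1 cells, -1.92 in vector cells at 3 hours and 1.61 in SATB1 cells at 3 hours. SATB1 cells at 3 hours were the high group for CDH16. IGFL1 stood at -3.29, -2.77 and -0.27 in the same order, so that SATB1 cells at 3 hours lay near untreated vector cells and the other 2 groups below. MUC1, the mucin of apical membranes, was called higher in SATB1 cells alone (3.14 ± 0.56 against -0.18 ± 0.50). PHACTR3, a regulator of protein phosphatase 1 and actin, was also called higher in SATB1 cells alone (2.64 ± 0.53), but at 3 hours the 2 lines differed by -0.13, since untreated SATB1 cells stood 3.18 below untreated vector cells. HRASLS, a phospholipase gene (2.98 ± 0.59), and PRRT4, a gene of proline-rich transmembrane protein (3.91 ± 0.90), were called lower in vector cells alone.

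Genes of signalling and transcription were also among those with a higher response in SATB1 cells. PPARG (chromosome 3, 12287368 to 12434344), the nuclear receptor of fat cells, was called lower in vector cells (-1.32 ± 0.22) and not in SATB1 cells (0.48 ± 0.21), a difference of 1.79 ± 0.30 (Benjamini-Hochberg adjusted p = 0.0069). The same pattern of calls held for the protein kinase C gene PRKCA (1.17 ± 0.24), the ETS repressor gene ELK3 (1.25 ± 0.25), the Ikaros family gene IKZF2 (1.95 ± 0.43) and the receptor phosphatase gene PTPRG (0.99 ± 0.21). Called higher in SATB1 cells alone were the G protein regulator gene RGS2 (1.65 ± 0.34 against -0.66 ± 0.30), the adhesion receptor genes ADGRL2 (1.56 ± 0.30) and ADGRG2 (2.14 ± 0.35), and EPGN, a ligand of the EGF receptor (2.21 ± 0.35 against -0.12 ± 0.31). Of 12 EGF receptor ligands and receptors, EPGN alone was called higher, as 0.224% of all genes were, and 9 lay above 0 with a median of 0.54. SGK1, a kinase induced by glucocorticoids, was at 0.97 ± 0.26 in SATB1 cells and -0.75 ± 0.27 in vector cells (difference 1.72 ± 0.37, adjusted p = 0.033).

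A list of 39 cytosolic ribosomal protein genes had differences below 0, with no gene called. They ran from -1.16 to -0.27, with a median of -0.89. At an unadjusted p under 0.05, 25 of these 39 lay lower, where 5.95% of all genes did. In vector cells 24 were called higher, as 7.63% of all genes were, and the log2 fold changes ran from 0.27 to 1.30. In SATB1 cells 0 were called, where 1.58% of all genes were called higher, and the log2 fold changes ran from -0.44 to 0.40. RPS2, a small subunit protein, was at 1.30 ± 0.23 and 0.15 ± 0.23, a difference of -1.15 ± 0.33 (Benjamini-Hochberg adjusted p = 0.12). RPL7, of the large subunit, was at 1.00 ± 0.20 and 0.12 ± 0.20. In RNA-seq the 39 differences lay between -0.05 and 0.08. Transcripts of these genes begin with a C followed by a run of pyrimidines, and 30-base windows around the start show it, with 10 bases before the start in lower case and the pyrimidine run from the first base in capitals (GRCh38.p14).
RPS6 (chr9:19380217-19380246, minus strand): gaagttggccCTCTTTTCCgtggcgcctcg
RPLP0 (chr12:120201092-120201121, minus strand): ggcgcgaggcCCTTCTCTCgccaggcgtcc
RPS18 (chr6:33272065-33272094, plus strand): cacttccgctCTCTCTTCCacaggaggcct
RPL18 (chr19:48619159-48619188, minus strand): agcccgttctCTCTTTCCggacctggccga
Of 19 ribosomal protein genes with 1 listed start, 15 began with a C and at least 4 further pyrimidines, against 3.98% of all genes with 1 listed start. Most ribosomal protein genes have processed pseudogenes, and reads may be split among the copies. They are also short, with a median span of 5035 bases, and short genes as a whole had a median on the same side: the 1199 genes of up to 5 kb had a median difference of -0.15, against 0.12 for the 1369 genes above 200 kb. Over 14703 genes with a span, Spearman's rho between span and difference was 0.08, a description with no test. The median response of genes up to 5 kb was 0.23 in vector cells and 0.08 in SATB1 cells, and that of genes above 200 kb was -0.22 and -0.03. The part of gene length in the values of the ribosomal protein genes was not tested.

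**Figure D4:**
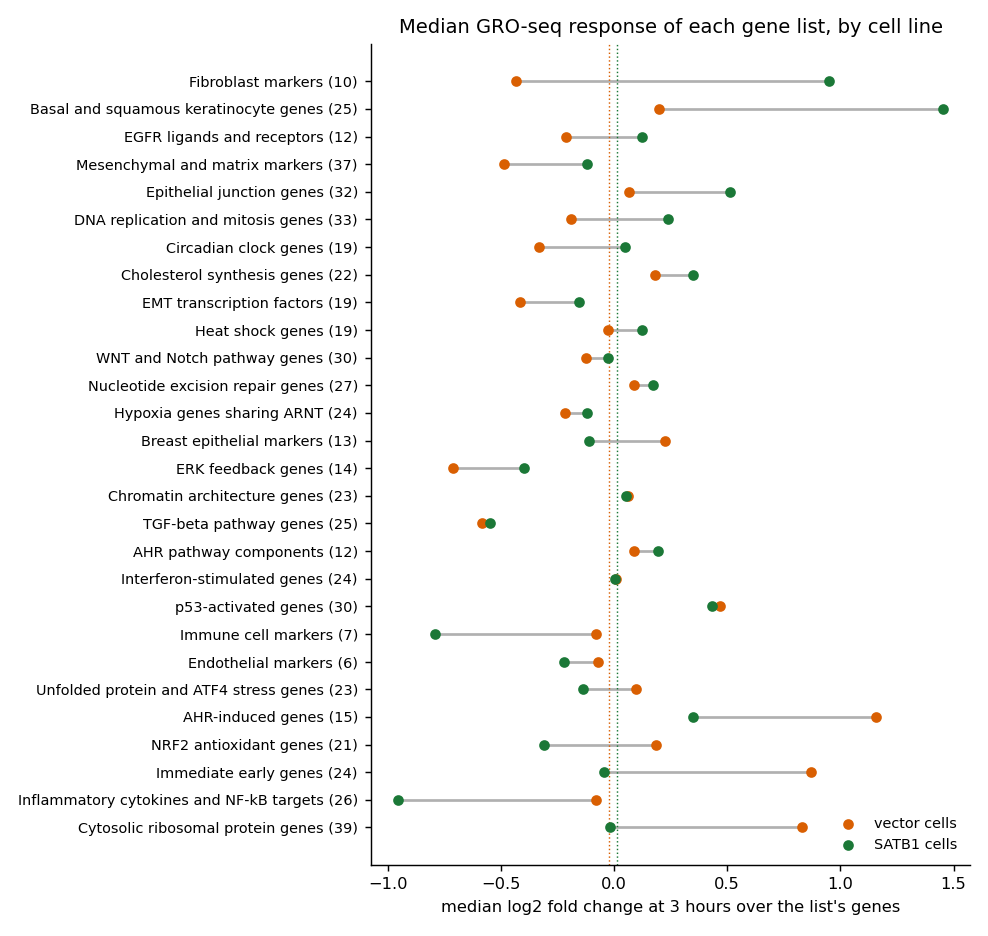
Median GRO-seq log2 fold change at 3 hours (x axis) over each of 28 gene lists, with the number of measured genes in brackets, in vector cells (orange) and SATB1 cells (green); dotted lines are the medians of all genes. The list medians of vector cells run from -0.71 (ERK feedback) to 1.16 (AHR-induced), and the ribosomal protein list goes from 0.83 to -0.02.

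The genes of the epithelial-to-mesenchymal transition, the question of the study, gave no called difference. Of 19 EMT transcription factors 0 were called, 5 lay higher and 1 lower at an unadjusted p under 0.05 (7.56% and 5.95% of all genes), with a median of 0.17. ZEB1, which represses E-cadherin, was called lower in vector cells (-1.05 ± 0.29) and not in SATB1 cells (0.36 ± 0.29), a difference of 1.41 with an interval from 0.57 to 2.25 (Benjamini-Hochberg adjusted p = 0.12). ETS1, an invasion-linked factor, was at -2.23 and -0.96 in the same order (difference 1.27 ± 0.48). Of 37 mesenchymal and matrix markers, 2 were called higher and 9 lower in vector cells, against 0 and 4 in SATB1 cells. Over all genes, 7.63% were called higher and 7.83% lower in vector cells, against 1.58% and 1.53% in SATB1 cells. The median difference of the 37 markers was 0.46. THBS1, which encodes the matrix protein thrombospondin-1, came closest to a call, at -2.89 ± 0.43 and -0.39 ± 0.41 (difference 2.51 ± 0.60, adjusted p = 0.056). Of 10 fibroblast markers, 0 were called, with a median difference of 1.32; DCN was called higher in both lines (3.68 in vector cells and 4.63 in SATB1 cells), with a difference of 0.96 ± 1.44. Of 32 epithelial junction genes, 24 lay above 0, with 5 higher at an unadjusted p under 0.05, against the same 7.56% of all genes. The E-cadherin gene CDH1 was called in neither line (difference 1.40 ± 0.53, interval 0.30 to 2.49, adjusted p = 0.24), nor was the vimentin gene VIM (difference -1.27 ± 0.69, interval -2.69 to 0.14).

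No member was called of the inflammatory list, the unfolded protein and ATF4 stress list, or the DNA replication and mitosis list. Most values of the first 2 lists lay below 0 and most of the last above it. Of 26 inflammatory cytokines and NF-kB targets, 21 lay below 0 with a median of -0.88, and 7 were lower at an unadjusted p under 0.05, as 5.95% of all genes were. NFKBIA, the inhibitor that NF-kB induces, was at 0.54 ± 0.22 in vector cells and -0.78 ± 0.23 in SATB1 cells (difference -1.33 ± 0.32, Benjamini-Hochberg adjusted p = 0.058). TNFAIP3, another brake on NF-kB, was called lower in SATB1 cells (-1.29 ± 0.28) and not in vector cells (-0.19 ± 0.27). Of 23 unfolded protein and ATF4 stress genes, 18 lay below 0, with a median of -0.43 and 5 lower at that p. Of 33 DNA replication and mitosis genes, 30 lay above 0, with a median of 0.26 and 5 higher at an unadjusted p under 0.05, as 7.56% of all genes were; over all genes, 7661 of 14745 lay above 0. CDC45, a helicase component of replication forks, was called lower in vector cells (-1.71 ± 0.30) and was at 0.01 ± 0.28 in SATB1 cells (difference 1.72 ± 0.42, adjusted p = 0.060).

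Of 30 p53-activated genes, 9 were called higher in vector cells and 5 in SATB1 cells, with medians of 0.47 and 0.43 and a median difference of -0.11; 5 lay lower and 1 higher at an unadjusted p under 0.05. Over all genes, 7.63% and 1.58% were called higher in the 2 lines, and 5.95% and 7.56% lay lower and higher at that p. CCNG1, a p53-induced cyclin, was at 1.56 ± 0.28 and 0.43 ± 0.28 (difference -1.14 ± 0.39, Benjamini-Hochberg adjusted p = 0.20). No member was called among the nucleotide excision repair, hypoxia, circadian clock, TGF-beta, ERK feedback, WNT and Notch, interferon-stimulated, heat shock, cholesterol synthesis and chromatin architecture genes, whose median differences ran from -0.03 (interferon-stimulated) to 0.23 (circadian clock). Nor was any among 13 breast epithelial and 6 endothelial markers, with medians of 0.02 and -0.41.

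In RNA-seq, of other libraries, the called genes had differences of much smaller size, with SGK1 and EPGN called. All 60 called genes had an RNA-seq value, and 33 of them had the same sign there. The median RNA-seq difference was 0.02 over the 33 genes higher in GRO-seq and 0.00 over the 27 lower. The 95% interval of the RNA-seq difference excluded the GRO-seq value in 33 of 33 and 25 of 27, and the GRO-seq values, being called on their size, lean large. SGK1 was called in both assays in the same direction (RNA-seq 0.55 ± 0.09, Benjamini-Hochberg adjusted p = 0.00048). EPGN was called in opposite directions, at 2.33 ± 0.47 in GRO-seq and -0.46 ± 0.04 in RNA-seq. EGR1 mRNA was at 0.80 in vector cells and 0.94 in SATB1 cells, a difference of 0.14 with an interval from -0.01 to 0.29. Of 64 genes called in RNA-seq that GRO-seq also measured, 38 had the same sign in GRO-seq.

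**Figure D5:**
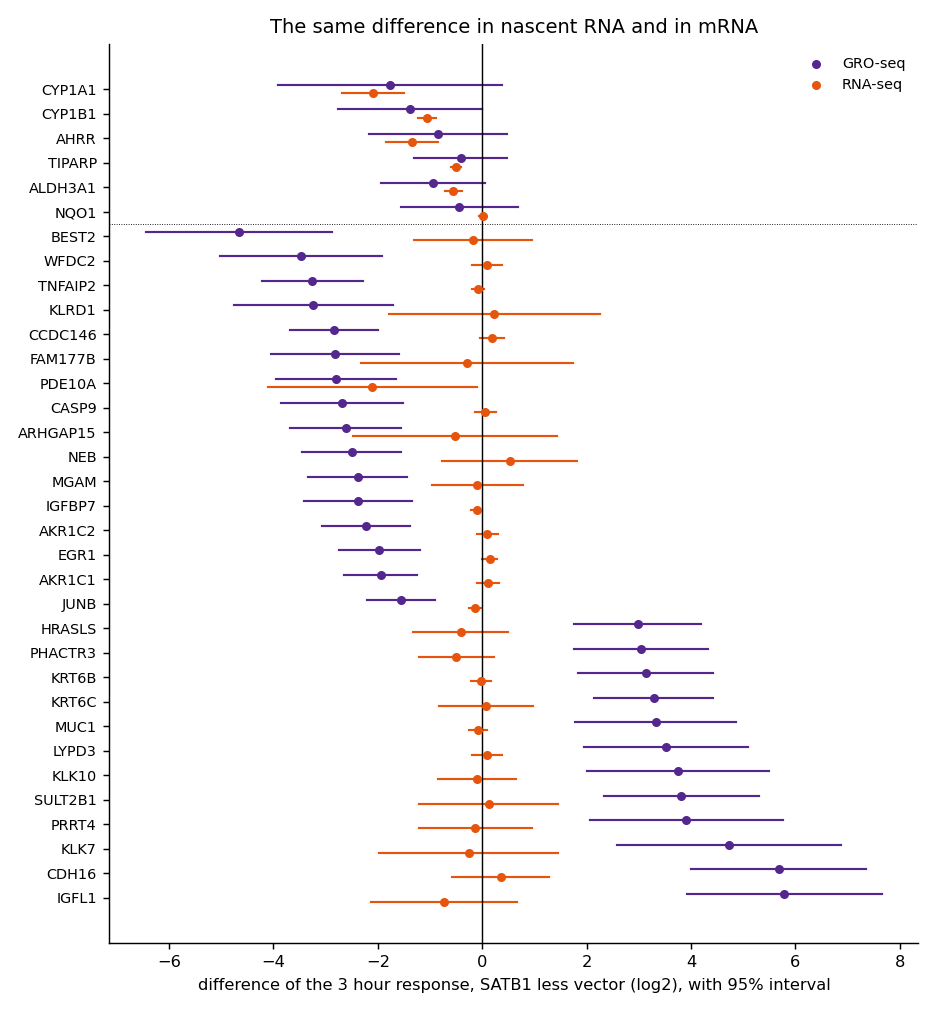
Difference of the 3 hour response, SATB1 less vector (log2, x axis), with 95% intervals in GRO-seq (purple) and RNA-seq (orange), for 6 AHR target genes above the dotted line and 28 genes called in GRO-seq below it. CYP1A1 (-1.77 and -2.10) and CYP1B1 (-1.38 and -1.06) lie close together in the assays, while most called genes lie nearer 0 in RNA-seq; PDE10A (-2.80 and -2.10) is an exception.

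Called genes that neighbour each other differed in the same direction. Among the 60, 6 pairs lay within 100 kb, and in all 6 both genes had the same sign. AKR1C1 and AKR1C2, KRT6B and KRT6C, and KLK7 and KLK10 are pairs of gene families. BEST2 and JUNB (33.0 kb apart) and PTP4A1 and the PHD finger gene PHF3 (52.2 kb) belong to different families. Over all 11633 pairs of successive genes within that distance, 52.7% had differences of the same sign. Most genes in those pairs were not called, so this share is not a like-for-like background for the called pairs. The sources used here do not say if reads were counted by strand, and reads that run past one gene into the next cannot be told apart from the next gene's own. After 3 days the corresponding difference had the same sign in 32 of the 33 genes called higher and 27 of the 27 called lower. It shares both untreated groups with the difference at 3 hours and is no independent evidence. The 3 day difference was -2.30 ± 0.38 for EGR1, -2.35 ± 0.35 for AKR1C1, 1.77 ± 0.32 for PPARG and 1.42 ± 0.20 for SAMD4A, all called. For SGK1 it was 0.14 ± 0.36 and was not called.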

How the data were processed

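The deposited tables hold the authors' own comparisons for 24 libraries per assay in 6 groups of 4. Per the file headers, 5 numbered contrasts each carry, for every gene symbol, a linear ratio (fold change) and a p-value before adjustment; the p-values deposited carry limma's column name. The tools, per the submitters' processing notes, were featureCounts, BWA 0.7.16a, limma, STAR and DESeq with GRCh38; settings, filters and use of strand are not stated in those notes. One label text gives the short exposure another length than the titles, which were followed. No value per library is in these tables, so the planned count model gave way to the planned fallback, and depth is unknown.

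Each log2 fold change was divided by Student's quantile for its p-value to give a standard error; of the degrees of freedom tried, 25 (GRO-seq) and 30 (RNA-seq) made the 5 errors of a gene vary least. The difference of contrasts 4 and 2, which share no group, was tested with both errors combined, and p-values were adjusted by Benjamini-Hochberg over all rows. RNA-seq rows that lacked a symbol (156) were not used. On simulated data over 14745 GRO-seq genes, 0 genes were called with none changed, and 28, 121 and 145 of 200 genes changed by log2 1, 2 and 3, with 1, 7 and 7 unchanged genes. The simulated noise was independent between contrasts and drawn from the same derived errors. It therefore cannot show how the test behaves where real libraries share technical spread. Coordinates come from GRCh38.p14, matched for 99.7% of genes.

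The gene lists, the tests and the choice of this comparison were made with earlier results of these data known. Genes named by rule are CYP1A1, CYP1B1, AHRR, TIPARP, NQO1, ALDH3A1 and SATB1, the 12 largest and 12 smallest called differences, up to 3 called members of lists with 2 or more, and up to 2 uncalled members of lists with none; the text names part of these, and the other genes it names, called or in a list, were chosen after their values were seen. Scripts ran in Python 3.11.15 with scipy 1.17.1, pandas 2.3.3, matplotlib 3.10.9 and numpy 2.4.6. One called neighbour pair is counted but not reported here by name.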

Additional observations from a re-analysis of the deposited data

Results flagged for a closer look

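A test of the difference between the cell lines passed for 28 of the genes that the naming rule gives, which are therefore listed together with their difference of the 3 hour response (log2, SATB1 less vector, Benjamini-Hochberg adjusted p under 0.05 each). Lower in SATB1 cells were BEST2 (-4.66), WFDC2 (-3.47), TNFAIP2 (-3.26), KLRD1 (-3.24), CCDC146 (-2.84), FAM177B (-2.82), PDE10A (-2.80), CASP9 (-2.68), ARHGAP15 (-2.61), NEB (-2.50), MGAM (-2.38), IGFBP7 (-2.38), AKR1C2 (-2.22), EGR1 (-1.97), AKR1C1 (-1.95) and JUNB (-1.55). Higher were HRASLS (2.98), PHACTR3 (3.05), KRT6B (3.14), KRT6C (3.28), MUC1 (3.32), LYPD3 (3.52), KLK10 (3.75), SULT2B1 (3.81), PRRT4 (3.91), KLK7 (4.72), CDH16 (5.68) and IGFL1 (5.79). At an adjusted p under 0.01, 6 of the 28 were called.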

How the results depend on the processing

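The 60 called differences became 164 (97 higher in SATB1 cells, 67 lower) at an adjusted p under 0.1 and 8 (4 and 4) at one under 0.01; among the more precisely measured genes, those with an error at or below the median, 35 (19 and 16) were called. Other errors, distributions, centring and row choices called 45 to 67, the last with the genes also in the RNA-seq table; without all genes whose symbol starts with RPL or RPS and a digit (the listed genes, further ones and some kinases), a choice made after seeing the data, 60 were called. Calls in vector cells were 1042 at an adjusted p under 0.01 and 1156 with a 2-fold minimum. Those in SATB1 cells were 813 at 0.1, 149 at 0.01 and 297 with a 2-fold minimum. The spread of the response was 0.50 in vector and 0.29 in SATB1 cells among the more precisely measured genes. RNA-seq differences were 42 at 0.01. List members called were 51 higher and 75 lower at an unadjusted p under 0.05, against 2 and 5. Of 912 values of named genes under these alternatives, 39 lost a call, 6 gained one and 0 changed sign; 8 of 28 calls were lost with the larger of the errors taken for both. In the cases where calls were lost, the cause was not tested. No paired analysis was possible because the tables hold no values per library, and for the same reason no replicate was left out.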
